A study of Mus musculus with 12 samples.

Results

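The Cep genes are the genes whose symbol is Cep, for centrosomal protein, followed by a number. All 36 genes of that form were taken from a table of 14107 genes measured by RNA sequencing of mouse O4-positive cells, and no other criterion was used. They share a name, and their proteins a place in the cell, rather than a common ancestor of all. Some are related to each other, such as Cep170 and Cep170b. The family was proposed for description with results of this same comparison in view, so that its differences between the groups are given as a description and support nothing further. Of the 36 genes, 35 encode proteins by annotation, and Cep83os is a long non-coding RNA that starts beside Cep83.

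The O4 antibody recognises cells of the oligodendrocyte lineage from the late precursor stage onwards, before they make myelin. Cells were isolated by magnetic sorting from the cortex and corpus callosum of pups at postnatal day 7. In the 7 Control libraries the genotype was Chd7flox/flox, and in the 5 Chd7iKO libraries it was PDGFRaCre; Chd7flox/flox, with littermates as controls. All pups of both groups had received tamoxifen at 20 mg/ml under the skin, 40 µl on postnatal day 1 and 30 µl on day 4, which activates the inducible Cre. Both groups therefore share floxed Chd7, a chromatin remodeller gene, and tamoxifen, and differ in the Cre transgene, which is driven by the promoter of a receptor of oligodendrocyte precursors. No group with Cre and without floxed alleles is part of these data, so that effects of Cre and of the deletion cannot be told apart. The sources used here do not give the number of pups behind a library, and the tests therefore measure only the spread between these samples, which may be technical.

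The centrosome consists of a pair of centrioles, barrels of microtubules, within a matrix that nucleates microtubules. Once in each cell cycle, in S phase, a new centriole forms beside each old one, and at mitosis the duplicated centrosomes separate and organise the spindle poles. In a cell that has left the cycle, the older centriole can dock at the membrane through its appendages and template a primary cilium. Oligodendrocyte precursors divide until they differentiate.

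Promoter sequences are shown for Cep55, Cep135, Cep152 and Cep89, which were among the 5 largest fold changes of the family. Their promoters were searched, like those of the other Cep genes, for 2 short motifs of cell cycle genes. Cep128, also among these 5, was searched but is not shown. Its E2F match begins 212 bases before the start, outside the stretches printed here. Of the 36 genes, 31 matched a RefSeq promoter, with 38 promoters in all, and Cep76, Cep120, Cep192 and Cep350 were among those with no match. Each stretch runs 5′ to 3′ on the gene's strand from base -200 to base -28 relative to the RefSeq start, in the build GRCm38.p6, and capitals mark a motif match. Cep55 lies at chr19:38054841-38055013 on the plus strand and holds the CHR motif in its reverse complement, 33 bases before the second of the RefSeq starts of Cep55, from which its stretch is counted. The promoter of the first RefSeq start has no match, and the match spans the start that GENCODE gives for Cep55. Cep135 lies at chr5:76588499-76588671 on the plus strand and holds neither motif. Cep152 lies at chr2:125625141-125625313 on the minus strand and holds the E2F motif in its reverse complement, 174 bases before the start. Cep89 lies at chr7:35396863-35397035 on the plus strand and holds the CHR motif 114 bases before the start. By the GENCODE annotation of the same build the genes themselves span chr19:38055011-38074423 (Cep55), chr5:76588698-76646466 (Cep135), chr2:125563088-125625113 (Cep152) and chr7:35397035-35438689 (Cep89).
Cep55: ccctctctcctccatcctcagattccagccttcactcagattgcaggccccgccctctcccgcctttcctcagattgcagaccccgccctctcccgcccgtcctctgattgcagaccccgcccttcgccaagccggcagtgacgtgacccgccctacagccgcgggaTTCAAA
Cep135: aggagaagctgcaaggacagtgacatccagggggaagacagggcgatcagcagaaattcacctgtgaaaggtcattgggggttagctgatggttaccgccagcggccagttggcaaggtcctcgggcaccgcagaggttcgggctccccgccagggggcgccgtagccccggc
Cep152: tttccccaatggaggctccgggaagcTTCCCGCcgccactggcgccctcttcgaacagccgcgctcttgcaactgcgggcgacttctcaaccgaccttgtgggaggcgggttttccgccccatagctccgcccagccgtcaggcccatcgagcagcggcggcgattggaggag
Cep89: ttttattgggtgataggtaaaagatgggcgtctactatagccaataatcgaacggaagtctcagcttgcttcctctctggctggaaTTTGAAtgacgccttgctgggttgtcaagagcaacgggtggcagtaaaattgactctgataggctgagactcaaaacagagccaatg
The stretch between the annotated starts of Cep83 and Cep83os, which point away from each other, spans 77 bases at chr10:94688577-94688653 and is shown on the plus strand, from the Cep83os side to the Cep83 side, because both transcripts share it.
Cep83 and Cep83os: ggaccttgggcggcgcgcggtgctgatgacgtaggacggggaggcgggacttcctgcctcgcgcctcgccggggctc

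The CHR, a motif of genes switched on late in the cycle, was searched as TTTGAA on both strands in the 250 bases before each start. It was present in 6 of 38 Cep promoters (15.8%), against 10.3% of the promoters of all tested genes and 16.0% of all RefSeq promoters. These were promoters of Cep55, Cep57l1, Cep89, Cep162, Cep164 and Cep170. The E2F motif, bound by factors of the entry into S phase, was searched as GCGGGAA on both strands and was present in 9 of 38 Cep promoters (23.7%), in 8 genes, against 6.6% of promoters of tested genes and 3.82% of all RefSeq promoters. These genes were Cep41, Cep44, Cep57, Cep70, Cep112, Cep128, Cep152 and Cep170. The Cep57 match is the same site in its promoters 1 and 2, which overlap. Of the 10 genes with a promoter that are called higher in Chd7iKO cells below, 3 held the CHR and 2, Cep128 and Cep152, the E2F motif. The other genes with an E2F motif were not called, and the relation of the motifs to the calls was not tested. The Cep promoters also had a higher content of G and C, with a median of 61.2% against 52.4% over all RefSeq promoters, and a median of 18 against 6 CG dinucleotides, and the part of this composition in the E2F matches was not tested. No single Cep promoter held both motifs, and a match is a description of the sequence, not of a bound factor.

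Before the comparison, the libraries themselves were examined. The total of estimated counts lay between 30384507 in Chd7iKO 3 and 35512311 in Control 6, and every Cep gene was measured in every library with 85 to 7579 counts. The Chd7 transcript, counted over the whole gene, stood at 179 to 270 CPM (counts scaled to an equal library size with TMM factors) in Control and 207 to 281 CPM in Chd7iKO libraries, which does not check the deletion because the sources used here do not name the floxed exons. Markers of the oligodendrocyte lineage were present in every library, with a sum over 14 genes of 18217 to 22270 CPM in Control and 14600 to 17104 CPM in Chd7iKO libraries. Control 3 had the lowest level among the Controls in 15 of 36 Cep genes, and Chd7iKO 4 the lowest level of its group in 15.

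Of the 36 Cep genes, 11 were higher in Chd7iKO cells, 0 were lower and 25 did not pass the threshold of an adjusted p under 0.05 in edgeR's quasi-likelihood test over all genes. The same threshold was passed upwards by 15.8% and downwards by 13.8% of the 14107 genes, and in either direction by 29.5%. Since the family was proposed from this comparison, nothing is read from its count, or from the counts of its roles below, against these shares. The 11 genes were Cep55, Cep135, Cep152, Cep128, Cep89, Cep192, Cep162, Cep170b, Cep72, Cep250 and Cep83, in order of their log2 fold change, from 0.78 down to 0.19. An unadjusted p under 0.05 in the same test was found for 17 of the 36 Cep genes and for 5744 of the 14107 genes. Fold changes were positive in 28 Cep genes and negative in 8, and over all genes positive in 7091 and negative in 7016. The median log2 fold change was 0.16 over the family and 0.00 over all genes. The count of all genes called fell from 4167 to 2690 when Chd7iKO 5 was left out, while that of Cep genes ranged from 8 to 13 over the fits that each left out 1 library.

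**Figure D1:**
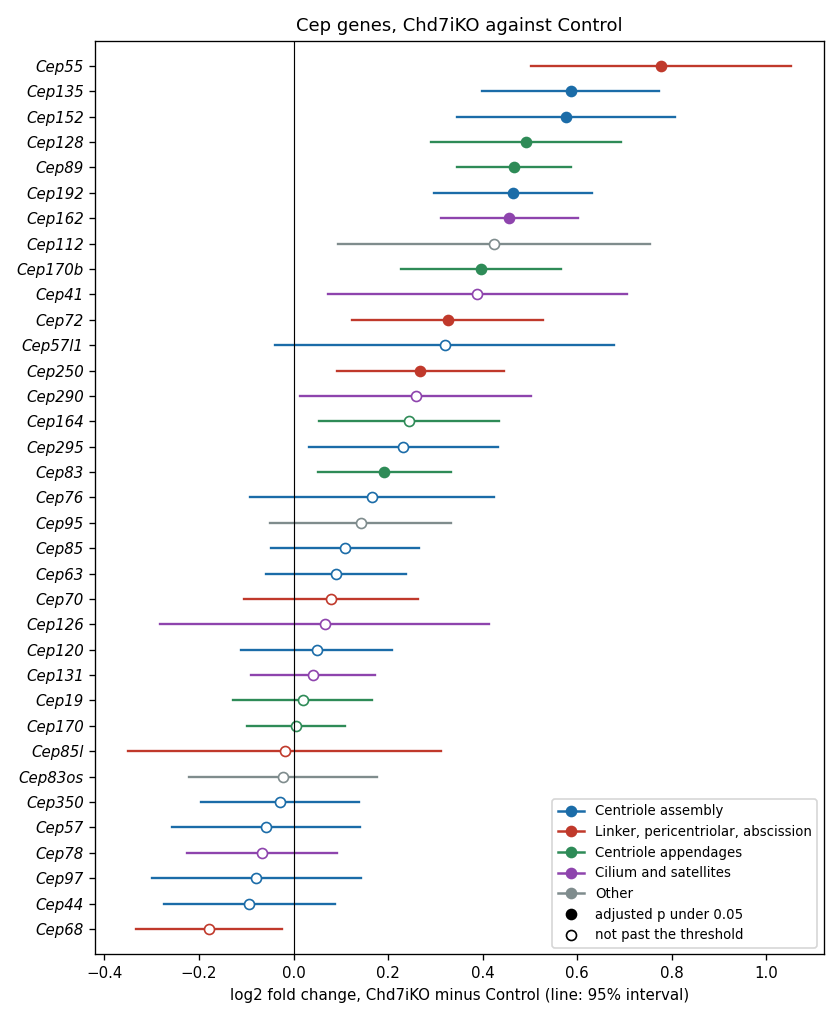
Log2 fold change of 35 of the 36 Cep genes, Chd7iKO minus Control, with its 95% interval, coloured by role, with filled points for genes past the threshold. The filled points run from Cep83 at 0.19 to Cep55 at 0.78, and no gene on the negative side is filled.

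In 9 genes every Chd7iKO library lay above every Control library, a separation found upwards in 6.20% of all genes and downwards in 6.32%. These were Cep55, Cep83, Cep89, Cep128, Cep135, Cep162, Cep170b, Cep192 and Cep295, of which Cep295 did not pass the threshold. No Cep gene was separated downwards. Summed over the family, the level was 1059 to 1215 CPM in Control and 1196 to 1277 CPM in Chd7iKO libraries, so that the sums of the groups overlapped. The genes with the most reads weigh most in this sum. The mean log2 CPM of the family was 4.29 to 4.49 in Control and 4.54 to 4.65 in Chd7iKO libraries, without overlap. The same mean over all genes was 4.66 to 4.72 in Control and 4.72 to 4.78 in Chd7iKO libraries. In bulk samples such as these, more cells that express a gene and more RNA per cell cannot be told apart.

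**Figure D2:**
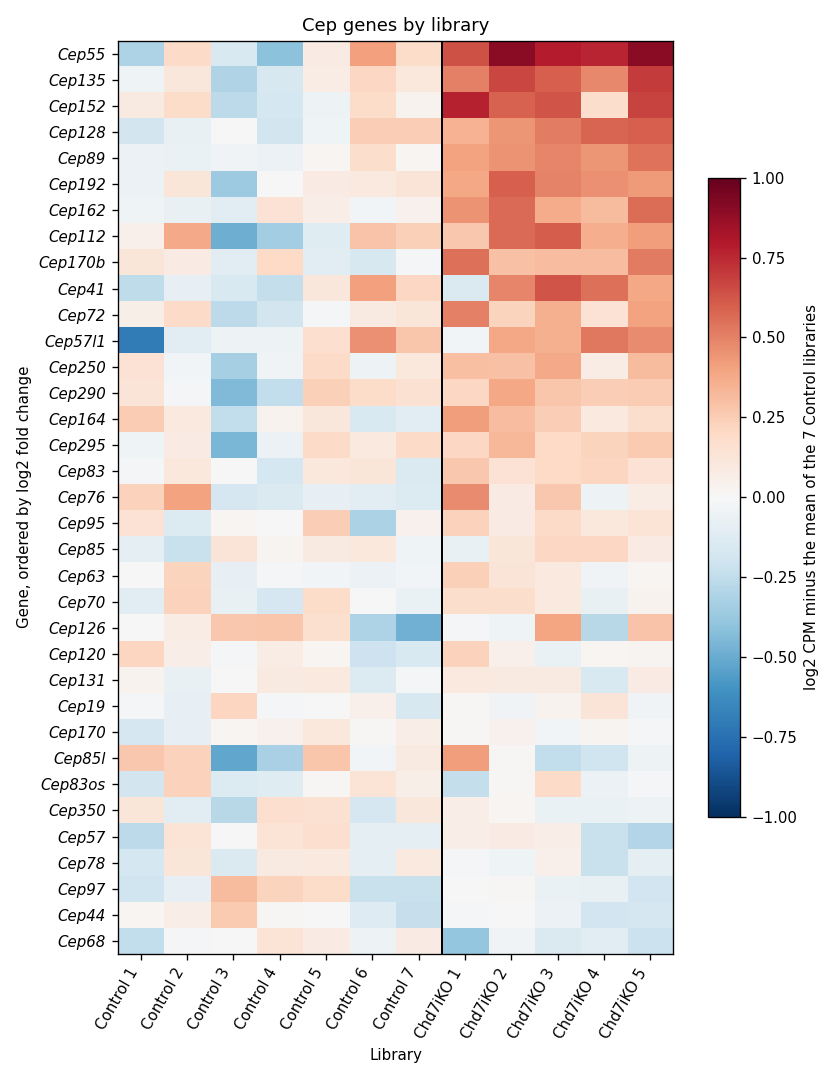
Level of 35 of the 36 Cep genes in each of the 12 libraries, as log2 CPM minus the mean of the 7 Control libraries, with genes ordered by fold change. The upper rows are red across the Chd7iKO libraries, the lower rows are mixed, and the column of Control 3 is blue in many rows, in which it had the lowest Control level for 15 genes.

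Among the genes that build the centriole, 3 of 13 were higher and 0 were lower, with a median log2 fold change of 0.11. Cep135 is a structural protein of the centriole core. Its level in Control was 13.1 CPM at the lowest (Control 3), 17.0 at the median and 18.6 at the highest (Control 6), and in Chd7iKO libraries 1 to 5 it was 22.9, 25.6, 24.4, 22.5 and 26.2 CPM. All Chd7iKO libraries thus lay above all Controls. The means were 16.2 ± 1.93 CPM (SD, n = 7) and 24.3 ± 1.62 CPM (n = 5), and the log2 fold change was 0.59 (SE 0.087).

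Cep152 and Cep192 are scaffolds that bring Plk4, the kinase that starts duplication, to the older centriole. Cep152 had 11.8, 14.4 and 16.0 CPM as lowest, median and highest Control, and 24.1, 21.2, 21.8, 15.9 and 22.6 CPM in the Chd7iKO libraries. The groups overlapped in Chd7iKO 4, which fell just below the highest Control, while the other 4 lay above it. For Cep152 this gave a log2 fold change of 0.58 (SE 0.107). Cep192, which also gathers the material that nucleates microtubules, had 35.5, 48.4 and 49.9 CPM in Control and 59.6, 69.1, 64.4, 62.6 and 61.5 CPM in Chd7iKO libraries. The groups did not overlap, and Control 3 stood apart as the lowest library. Means of 46.0 ± 5.14 and 63.4 ± 3.59 CPM gave Cep192 a log2 fold change of 0.46 (SE 0.078).

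Cep350, a large centrosomal protein that binds microtubules, was the assembly gene with the most reads. It had 101, 132 and 138 CPM as lowest, median and highest Control and 128, 124, 117, 117 and 118 CPM in the Chd7iKO libraries, which all lay within the Control range. Its log2 fold change was -0.03 (SE 0.078, 95% interval -0.20 to 0.14). The other 9 assembly genes did not pass the threshold. Cep57l1, a relative of Cep57, had a log2 fold change of 0.32, Cep295, which is needed for a new centriole to become a centrosome, 0.23, and Cep76, which limits duplication, 0.17. Cep85, a partner of the assembly factor Stil, had 0.11, Cep63, a partner of Cep152, 0.09, and Cep120, which lengthens centrioles, 0.05. Below zero were Cep57 at -0.06, Cep97, which caps the centriole together with Ccp110, at -0.08, and Cep44 at -0.09. For Cep295 and Cep63 an exon overlaps that of a measured gene on the other strand, Taf1d over 77 bases and Anapc13 over 239 bases, and strand-specific counting is not stated, so that such reads cannot be told apart. Cep295 also overlaps genes on the other strand that were not measured, such as Gm16568 over 1765 bases. Cep295 passed the threshold when Control 3 was left out (edgeR adjusted p = 0.0471) and, with all libraries, when scaled to library totals (0.0470).

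The genes of the centrosome linker, the surrounding matrix and cell separation numbered 6, of which 3 were higher and 0 were lower (median log2 fold change 0.17). Cep55 acts at the midbody, the bridge between daughter cells, where it recruits the machinery that cuts it. It had 9.90 CPM in the lowest Control (Control 4), 14.0 at the median and 17.6 in the highest (Control 6), and 20.5, 24.6, 22.7, 22.4 and 24.7 CPM in the Chd7iKO libraries. The groups were separate. With 13.4 ± 2.74 CPM (SD, n = 7) and 23.0 ± 1.72 CPM (n = 5), its log2 fold change of 0.78 (SE 0.128, a 1.71-fold difference) was the largest of the family.

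Cep250, known as C-Nap1, anchors the linker that holds the centrosome pair together until mitosis. It had 44.5, 54.9 and 63.8 CPM as lowest, median and highest Control and 68.9, 68.4, 72.6, 58.8 and 69.6 CPM in the Chd7iKO libraries. All but Chd7iKO 4 lay above the highest Control. Its log2 fold change of 0.27 (SE 0.082) lost its call when Chd7iKO 2, 3 or 5 was left out (edgeR adjusted p up to 0.0656). Of the Cep250 exons, 1149 bases (11.1%) overlap 6430550D23Rik, a gene on the other strand that was not measured. Cep72, which recruits matrix proteins to the spindle poles, had 9.83, 12.3 and 13.5 CPM in Control and 16.8, 13.8, 15.1, 13.0 and 15.6 CPM in Chd7iKO libraries. Again Chd7iKO 4 alone lay within the Control range. The log2 fold change of Cep72 was 0.33 (SE 0.094), with a call lost without Chd7iKO 5 (edgeR adjusted p = 0.0578).

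Cep68, a linker protein that binds rootletin, had the most reads of these genes and the most negative fold change of the family. Its Controls had 74.8, 88.9 and 98.0 CPM as lowest, median and highest, and the Chd7iKO libraries 67.9, 86.7, 80.4, 82.3 and 76.5 CPM. Only Chd7iKO 1 lay outside the Control range. The log2 fold change of Cep68 was -0.18 (SE 0.072, 95% interval -0.33 to -0.02) and did not pass the threshold. Without Control 1 it passed it as lower (edgeR adjusted p = 0.0190). Cep70, which binds gamma-tubulin, and Cep85l, a relative of Cep85, had log2 fold changes of 0.08 and -0.02.

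Of 7 genes of the appendages of the older centriole, 4 were higher and 0 were lower, with a median log2 fold change of 0.24. Cep128 is a protein of the subdistal appendages, which anchor microtubules. It had 9.44, 10.4 and 12.8 CPM as lowest, median and highest Control and 13.7, 14.7, 15.4, 16.1 and 16.3 CPM in the Chd7iKO libraries. The groups were separate, and the log2 fold change was 0.49 (SE 0.094). Cep89 belongs to the distal appendages, which attach the centriole to the membrane before a cilium forms. It had 20.7, 21.2 and 24.5 CPM in Control and 28.8, 29.7, 30.5, 29.5 and 31.7 CPM in Chd7iKO libraries, a log2 fold change of 0.47 (SE 0.056). The groups were separate here too, and Control 6 was higher than the other Controls. With its narrow spread, 21.7 ± 1.32 against 30.0 ± 1.10 CPM, Cep89 had the smallest SE among the 11 genes.

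Cep170 is a subdistal appendage protein used as a mark of the mature centriole, and Cep170b is its paralog. Cep170b had 21.0, 23.2 and 27.1 CPM as lowest, median and highest Control and 34.6, 28.9, 29.1, 29.1 and 33.8 CPM in the Chd7iKO libraries, which all lay above the Controls. Cep170b thus had a log2 fold change of 0.40 (SE 0.079). Cep170 had 187, 213 and 226 CPM in Control and 211, 217, 205, 214 and 207 CPM in Chd7iKO libraries, all within the Control range. Its log2 fold change was 0.01 (SE 0.048, 95% interval -0.10 to 0.11), although it was the Cep gene with the most reads. Cep83, which places the distal appendages, had 20.5 to 25.2 CPM in Control and 25.6 to 27.8 CPM in Chd7iKO libraries, a log2 fold change of 0.19 (SE 0.065). Its call was the least steady, lost when Control 3, 4 or 7 or any single Chd7iKO library was left out (edgeR adjusted p up to 0.0792). Cep164, which Cep83 recruits and which in turn brings the kinase Ttbk2 to start ciliogenesis, had a log2 fold change of 0.24, and Cep19, a protein of the older centriole, had 0.02. Neither passed the threshold in the edgeR fit, but Cep164 passed it without Control 1 or Chd7iKO 4 (edgeR adjusted p = 0.0177 and 0.0452). With all libraries it also passed with library totals in edgeR (adjusted p = 0.0266), in DESeq2 (0.0326) and in limma voom (0.0445).

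**Figure D3:**
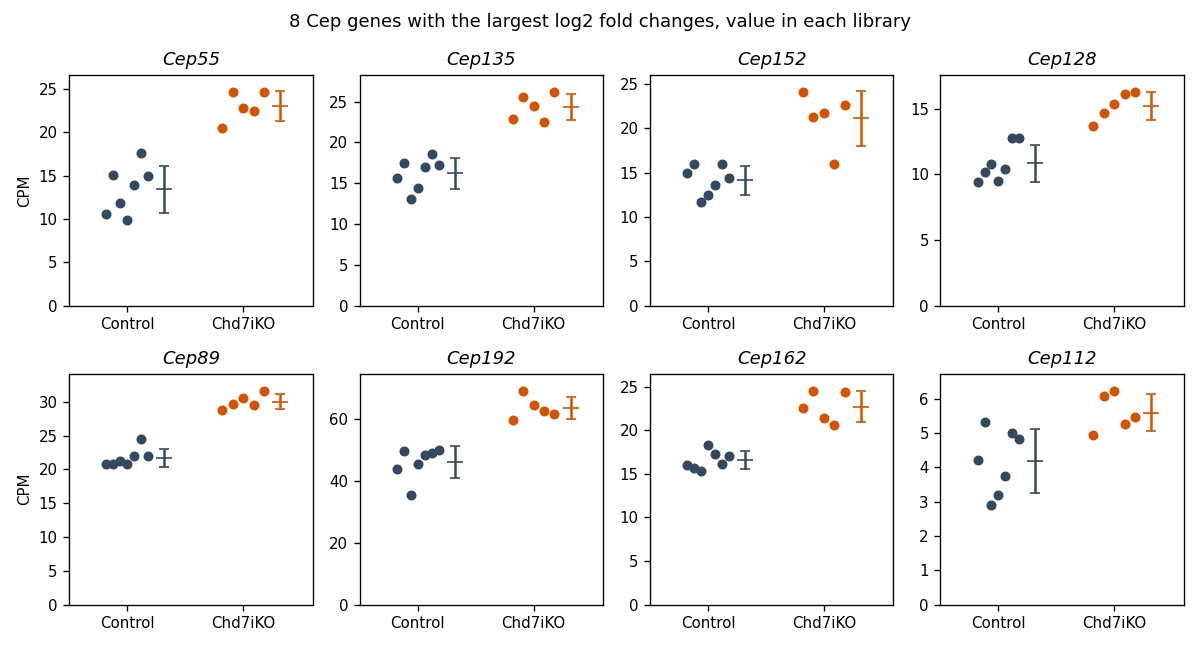
Level in CPM, axis from 0, of the 8 Cep genes with the largest log2 fold changes, with 1 point for each library and the mean with SD beside them (Control n = 7, Chd7iKO n = 5). The groups are separate for Cep55, Cep135, Cep128, Cep89, Cep192 and Cep162, while Chd7iKO 4 of Cep152 and 2 Chd7iKO points of Cep112 lie within the Control range.

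Among 7 genes of the cilium and of centriolar satellites, the granules around the centrosome, 1 was higher and 0 were lower, with a median log2 fold change of 0.14. Cep162 binds the microtubules of the cilium base and helps to assemble the transition zone, the gate of the cilium. It had 15.3, 16.2 and 18.3 CPM as lowest, median and highest Control and 22.6, 24.6, 21.5, 20.7 and 24.4 CPM in the Chd7iKO libraries. The groups were separate, and the log2 fold change was 0.46 (SE 0.068). Cep41, which takes part in the glutamylation of ciliary tubulin, had 7.91, 8.93 and 12.6 CPM in Control and 8.53, 13.3, 14.7, 13.9 and 12.4 CPM in Chd7iKO libraries. The groups overlapped, with Chd7iKO 1 below the Control median and Chd7iKO 5 just below the highest Control. The log2 fold change of Cep41 was 0.39 (SE 0.147, 95% interval 0.07 to 0.70) and did not pass the threshold, but passed it when Control 6 or Chd7iKO 1 was left out (edgeR adjusted p = 0.0204 and 0.0113), and with all libraries in DESeq2 (adjusted p = 0.0400).

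Cep290, a transition zone protein mutated in human ciliopathies, had 6.19, 9.20 and 9.91 CPM as lowest, median and highest Control and 9.73, 11.0, 10.2, 9.97 and 10.04 CPM in the Chd7iKO libraries. The Chd7iKO libraries lay at or just above the top of the Control range. Its log2 fold change of 0.26 (SE 0.114) did not pass the threshold, and 881 bases of its exons overlap 4930430F08Rik on the other strand. Cep131, a satellite protein, had 28.5, 31.2 and 33.4 CPM in Control and 33.5, 33.3, 33.4, 28.1 and 33.1 CPM in Chd7iKO libraries, with Chd7iKO 4 far below the other 4. The log2 fold change of Cep131 was 0.04 (SE 0.061). Cep126 had 0.07 and Cep78 had -0.07, and neither passed.

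The 3 genes given no role were not past the threshold. Cep112 had 2.89, 4.22 and 5.33 CPM as lowest, median and highest Control and 4.93, 6.08, 6.23, 5.27 and 5.46 CPM in the Chd7iKO libraries, and its log2 fold change was 0.42 (95% interval 0.09 to 0.75, SE 0.154). Of its Chd7iKO libraries 3 lay above the highest Control, and it passed the threshold without Control 2 or 6 or Chd7iKO 1 (edgeR adjusted p = 0.0317 to 0.0492). With all libraries Cep112 also passed with library totals in edgeR (adjusted p = 0.0416), in DESeq2 (0.0348) and in limma voom (0.0381). Cep95 had 11.2, 14.2 and 16.6 CPM in Control and 16.4, 14.9, 16.0, 15.1 and 15.4 CPM in Chd7iKO libraries, all within the Control range (log2 fold change 0.14, SE 0.089). The non-coding Cep83os had 13.2, 15.1 and 17.6 CPM in Control and 12.7, 15.1, 17.1, 14.4 and 14.9 CPM in Chd7iKO libraries, a log2 fold change of -0.02 (SE 0.093). The groups overlapped almost fully, beside the value of 0.19 for Cep83 across the shared promoter, and the difference between both transcripts was not tested.

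Levels between genes were compared per kilobase of annotated exons. In Control, Cep68 had the highest level at 15.2 ± 1.30 CPM per kb (SD, n = 7), followed by Cep170 at 11.6 ± 0.749 and Cep19 at 11.3 ± 0.943 CPM per kb, and the latter pair lay within their spread. The lowest levels were 0.733 ± 0.120 CPM per kb for Cep290 and 0.676 ± 0.151 for Cep112, again within their spread. The 11 genes called higher lay between 0.768 CPM per kb for Cep128 and 5.42 for Cep250, and the 8 highest levels per length all belonged to genes that did not pass the threshold.

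**Figure D4:**
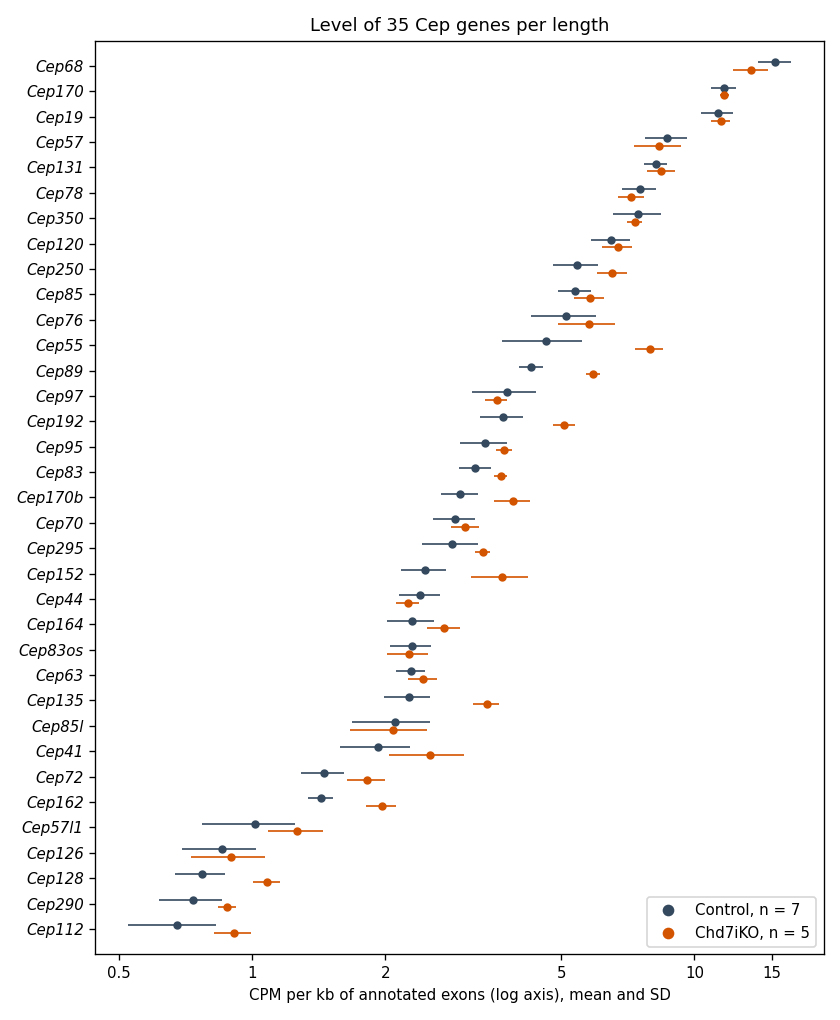
Level of 35 of the 36 Cep genes in CPM per kilobase of annotated exons on a log axis, mean and SD of 7 Control and 5 Chd7iKO libraries, ordered by the Control mean. Levels run from 0.676 for Cep112 to 15.2 for Cep68 in Control.

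Partners of the Cep proteins that are not named Cep were counted by the same threshold. Over all genes it was passed upwards by 15.8% and downwards by 13.8%, and nothing is read from the counts against these shares. Of 13 partners in centriole assembly, 8 were higher and 0 were lower (median log2 fold change 0.38), among them Stil (0.81), Sass6 (0.55) and Ccp110 (0.41). Of 8 subunits of augmin, which branches spindle microtubules, 4 were higher and 0 were lower (median 0.36), with Haus3 at 0.64, Haus6 at 0.58 and Haus5 at 0.42. Of 14 genes of the pericentriolar material 5 were higher and 2 lower (median 0.09), with Aspm at 0.71, Nedd1 at 0.39 and Cdk5rap2 at 0.48. Of 10 partners at appendages and linker, 3 were higher and 0 were lower (median 0.17), led by the mitotic kinase Nek2 at 0.81.

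The partners on the side of the cilium were counted likewise, beside the shares of 15.8% higher and 13.8% lower over all genes. Of 14 transition zone genes 1 was higher, Nphp4 (0.49), and 1 was lower, Tmem231 (-0.36), with a median log2 fold change of -0.06. Of 18 genes of intraflagellar transport, which carries cargo along the cilium, 4 were higher and 0 were lower (median -0.01), with Wdr35 at 0.30. Of 7 satellite genes 0 were higher in edgeR and 1 was lower, Bbs4 (-0.35). Among multiciliated cell markers, 3 of 10 were measured, with a sum of 7.29 to 11.7 CPM in Control and 10.5 to 13.1 CPM in Chd7iKO libraries, and 1 of them was higher, Foxj1. Whether the lists differ from each other was not tested.

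Cell cycle genes and markers of other cell types moved in the same libraries. Over all genes, 15.8% were higher and 13.8% were lower by the same threshold. All 30 genes of G2 and mitosis and all 27 genes of S phase were higher (median log2 fold changes 0.78 and 0.80). The mean log2 CPM of the mitosis genes was 5.19 to 5.97 in Control and 6.13 to 6.44 in Chd7iKO libraries, without overlap. Of 12 microglial markers 9 were higher, with sums of 229 to 527 CPM in Control and 474 to 609 CPM in Chd7iKO libraries. Of 10 endothelial markers 7 were higher, with sums of 162 to 400 and 276 to 681 CPM, and of 10 mural and fibroblast markers 8 were higher, with sums of 130 to 382 and 319 to 845 CPM. Of 10 astrocyte markers 1 was higher (sums 2983 to 6730 and 3115 to 4977 CPM), and of 9 measured neuronal markers 1 was higher and 3 were lower (sums 993 to 1159 and 955 to 1020 CPM). Of the 14 oligodendrocyte lineage markers 7 were lower. The part of these cell types and of the share of dividing cells in the differences of the Cep genes was not tested.

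A measure that does not use the comparison of the groups is the relation to mitosis within the 7 Control libraries. For each of the 36 Cep genes, log2 CPM was correlated with the mean log2 CPM of the 30 mitosis genes, which hold no Cep gene, with two-sided exact permutation tests over 5040 orders and adjustment over the 36 genes. Cep55 followed the mitosis level closely, with Pearson's r = 0.980 (exact permutation p = 0.000794, adjusted p = 0.0286, n = 7) and Spearman's rho = 0.929 (exact permutation p = 0.00675, adjusted p = 0.121). Without Controls 1 and 6, the libraries farthest from the median, r was 0.977, and over the 7 sets that each lack 1 library it ranged from 0.971 to 0.998. Its 2 lowest Controls, 4 and 1, had the lowest mitosis levels and its highest, Control 6, the highest. Cep55 was the only Cep gene past the threshold by Pearson's r, and 0 passed by Spearman's rho. An unadjusted permutation p under 0.05 was found for 8 Cep genes by Pearson's r and for 7 by Spearman's rho. The relation was not computed for genes outside the family, so whether Cep genes follow mitosis more often than other genes was not tested. Without Control 2, Cep41, Cep83os and Cep89 passed beside Cep55, and without any other single Control 0 genes did. With 6 libraries there are only 720 orders, too few for 1 gene alone to pass the threshold after adjustment.

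The other Cep genes ranged widely, from r = -0.81 for Cep120 upwards, with 23 of 36 positive and a median of 0.24. No share over genes outside the family is available for comparison with these counts. The largest values after Cep55 were 0.914 for Cep41 (adjusted exact permutation p = 0.104), 0.884 for Cep83os, 0.824 for Cep128 and 0.812 for Cep135. Of the 11 genes higher in Chd7iKO cells, 9 had a positive r, with a median of 0.61, and 7 were above 0.5. Of the other 25 genes 14 had a positive r, with a median of 0.09, and 7 were above 0.5, and this difference was not tested. Among the 11, Cep170b at -0.61, Cep162 at -0.14 and Cep250 at 0.07 had no large positive value. Within Control these values share the libraries and their depth, and the labels name no batch that could be split. Control 6, highest in mitosis, also had the highest Control means of microglial, endothelial and mural and fibroblast markers (log2 CPM 4.90, 5.04 and 4.49). Control 1, lowest in mitosis, had 4.30, 4.86 and 4.41, and the part of these cells in the relation was not tested.

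**Figure D5:**
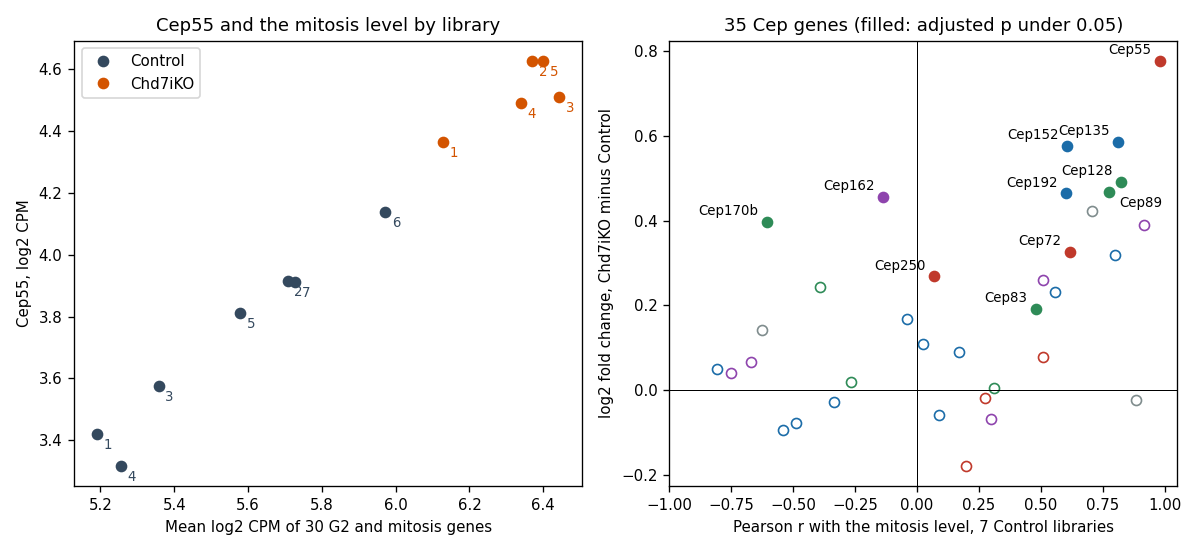
Left, log2 CPM of Cep55 against the mean log2 CPM of 30 G2 and mitosis genes, 1 point for each library with its replicate number; right, log2 fold change of 35 of the 36 Cep genes against their Pearson r with the mitosis level in the 7 Controls, filled where past the threshold. Cep55 rises with the mitosis level over the Controls (r = 0.980), and Cep170b (-0.61) and Cep162 (-0.14) are filled points to the left of zero.

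The authors also deposited lists of genes bound by Chd7 and by Chd8, a related remodeller, without values for single sites. Of the 36 Cep genes, 11 (30.6%) were in the list bound by Chd7 in oligodendrocyte precursors, which held 39.4% of all tested genes. These were Cep57, Cep57l1, Cep63, Cep68, Cep70, Cep72, Cep120, Cep135, Cep152, Cep170 and Cep290, of which Cep72, Cep135 and Cep152 were among the 11 called higher and the other 8 among the 25 not called. Cep55 alone (2.78%, against 7.8% of tested genes) was listed as bound only in oligodendrocytes. In the lists that compare both remodellers, 10 of the Cep genes (27.8%, against 34.8% of tested genes) were bound by both, Cep135 by Chd7 alone, and Cep76, Cep78, Cep97, Cep164, Cep192 and Cep250 by Chd8 alone. The authors' list of bound genes that were upregulated held Cep72, Cep112, Cep128, Cep135 and Cep152, or 13.9% of the family against 4.95% of tested genes, and that of downregulated ones held 0. That list was itself chosen by the comparison described here. Cep112 and Cep128 stand in it but not in the list for precursors, and how binding sites were tied to genes is not stated in the sources used here.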

How the data were processed

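RNA from 7 Control and 5 Chd7iKO samples of sorted mouse cells was analysed from 1 table of 14107 genes, deposited by the authors as unscaled estimated counts. Library preparation used a stranded mRNA kit per the labels' protocols. TopHat2, Bowtie, featureCounts, edgeR and mm10 appear in the submitters' processing notes, with no role or version, and the annotation and strand setting are not given in the sources used here. Of all values 2973 (1.76%) were not whole, 0 of them in Cep genes, and all were rounded. Columns of log2 fold changes and p-values from the authors' own test were deposited beside the counts and used here only for the counts given under other observations. Lists of bound genes were used as deposited, and sheets on other topics were not analysed here. The number of per-sample columns left unused was 0.

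Groups came from titles and genotype labels. edgeR 4.0.16 (R 4.3.3) was run with TMM scaling, its expression filter (0 genes removed), a quasi-likelihood F-test without covariate, two-sided, and Benjamini-Hochberg adjustment over all genes at a threshold of 0.05. CPM were computed after TMM scaling, log2 CPM with a prior count of 2. The biological coefficient of variation was 14.7%, and depth was 30384507 to 35512311 counts per library. No pair of libraries within a group agreed within sampling noise (31 pairs, lowest chi-square per degree of freedom 9.14), and each was counted as 1 replicate. The closest pairs were Chd7iKO 2 and 3 (9.14) and Chd7iKO 4 and 5 (11.2), against 16.8 for the closest Control pair. This check cannot tell separate animals from separate preparations of the same cells. Replicate numbers 1 to 5 occur in both groups, and the correlations of their deviations ran from -0.18 to 0.38. Whether the numbers pair samples, for example littermates, was not tested, and the main fit used no pairing. Exon lengths and positions came from GENCODE vM21 (GRCm38, which is mm10). Promoters came from RefSeq (GRCm38.p6), and the motif letters were chosen after the data were seen. The code was tested on simulated data for this comparison (14107 genes, 50 planted at each fold) and recovered 10% at 1.25-fold, 72% at 1.5-fold and 100% at 2-fold and 4-fold, with 6.62% false genes among its calls. The simulation changed far fewer genes than were called in the data and gave all genes the same variation. Its recovery at small folds may therefore differ from that in the data.

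Values of 1 Cep gene are not reported here, and it is counted in the totals. The Cep genes, their roles and the partner and marker lists were chosen with earlier results of these data known. In each role, values by library are given for the 3 genes with the largest absolute log2 fold change and the gene with the highest mean, and of partner lists up to 3 called genes by smallest p, while Foxj1 was named after its values were seen. Alternatives were DESeq2 size factors, library totals, no filter, DESeq2 1.42.0, limma 3.58.1 voom, a replicate block, a threshold of 0.01, and libraries left out singly or in pairs.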

Additional observations from a re-analysis of the deposited data

Results flagged for a closer look

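In 72 groups of values, each Cep gene in each group of libraries, 4 had 1 library far from the others by Dixon's criterion, a number that chance alone would give in about 1 of 20 groups. Cep192 in Control 3 had 35.5 CPM, while the other Controls had 43.8 to 49.9 CPM. Cep89 in Control 6 had 24.5 CPM, against 20.7 to 22.1 CPM. Cep63, which pairs with Cep152 at the centriole, had 25.5 CPM in Control 2, against 20.6 to 21.8 CPM. The satellite gene Cep131 had 28.1 CPM in Chd7iKO 4, against 33.1 to 33.5 CPM in the other Chd7iKO libraries. Cep192 and Cep89 kept their calls in each alternative.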

How the results depend on the processing

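Over all alternatives, 8 of the 11 called Cep genes kept their call in each (Cep55, Cep128, Cep135, Cep152, Cep89, Cep162, Cep170b and Cep192), while Cep83, Cep250 and Cep72 lost it at a threshold of 0.01 and, among the 20 alternatives at 0.05, in 10, 4 and 2 of them. The number of Cep genes called was 8 at a threshold of 0.01 and 8 without Chd7iKO 4 and 5, 14 with library totals, 14 with DESeq2, 13 with limma voom, and 8 to 13 with 1 library left out. The replicate block on libraries 1 to 5 of each group gave 15 Cep genes and 4819 of all genes. Cep68 (as lower), Cep295, Cep41, Cep57l1 and Cep112 were gained and Cep83 was lost, and whether the numbers pair the samples was not tested. Over all genes the count was 2056 at 0.01, 1747 without Chd7iKO 4 and 5, and 2690 to 4612 with 1 library left out, where the cause was not tested. Cep genes related to mitosis in Control numbered 0 with S phase genes and 0 to 4 with 1 Control left out, where fewer libraries limit the p. The Chd7 log2 fold change was -0.053 without Controls 3 and 6 and -0.029 to 0.090 with 1 library left out.

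Small values of uncalled genes changed sign, and the cause was not tested. Library totals gave log2 fold changes of 0.0039 for Cep350, 0.013 for Cep85l and 0.0079 for Cep83os. The replicate block gave -0.025 for Cep120, -0.0044 for Cep19, 0.012 for Cep83os and -0.091 for Cep126. Without Chd7iKO 4 and 5 the values were 0.064 for Cep57, -0.00080 for Cep19 and 0.063 for Cep85l. With 1 library left out they ran from -0.017 to 0.023 for Cep170, -0.15 to 0.038 for Cep85l, -0.079 to 0.027 for Cep83os, -0.0042 to 0.062 for Cep19 and -0.022 to 0.15 for Cep126. With library totals the median log2 fold change of all genes was 0.033, against 0.0014 with TMM.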

Other observations

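In the authors' deposited table, 11 Cep genes had an adjusted p under 0.05, as in the fit described above, and 10 were shared. Cep41 was called only in the authors' deposited table, at an adjusted p of 0.0493 there, and Cep83 only in the fit described above, at 0.127 in the authors' deposited table.

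When the 27 S phase genes took the place of the mitosis genes within the 7 Controls, 0 Cep genes passed adjustment by Pearson's r. Cep41, the gene of ciliary tubulin modification, then had the largest value, r = 0.933 (exact permutation p = 0.00258, adjusted p = 0.0929, n = 7; rho = 0.929, exact permutation p = 0.00675, adjusted p = 0.171; r = 0.826 without the 2 libraries farthest from the median). Cep55 had r = 0.898 (exact permutation p = 0.00794, adjusted p = 0.131; rho = 0.857, exact permutation p = 0.0238, adjusted p = 0.171; r = 0.782 without these 2). Cep120, which lengthens centrioles, had the most negative value, r = -0.81.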
